A study of Rattus norvegicus with 115 samples.

Results

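The genes described here are 8 transcripts used to recognise dendritic cells: Flt3, Clec9a, Xcr1, Irf8, Batf3, Clec10a, Clec4a3 and Ccr7. They were chosen by symbol from the 17455 gene symbols of a read count table, and all 8 were found. The table holds RNA-seq of cells sorted from mammary tumours that N-nitroso N-methylurea (NMU), a carcinogen, raised in virgin Sprague Dawley rats given 1 to 3 injections of 50 mg/kg at 35 to 53 days of age. All rats compared here received NMU. Once tumours could be felt, rats of one cohort were given the combination of an anti-PD-L1 antibody and LY2157299, the anti-PD-L1 antibody alone, LY2157299 alone, or vehicle; LY2157299 is an inhibitor of TGFBR1, a receptor for TGF-beta. Rats of a second cohort bore tumours that were not treated. The labels give neither the dose nor the length of these treatments.

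The labels name a CD45 (leukocyte), an EpCAM and a double negative fraction, but the columns of the table carry only the rat and the tumour. Columns were therefore taken as leukocyte columns where Ptprc, the gene of CD45, reached 300 CPM (counts scaled by the total of the column to a common sum). This held for 44 columns, with 486.2 to 2049 CPM of Ptprc and totals of 6609198 to 29727437 counts; 62 columns lay under 150 CPM, none of them above 124.0, and 1 lay between at 165.4 CPM. No tumour had more than 1 leukocyte column. The leukocyte columns came from 6 rats on the combination (8 columns), 5 on anti-PD-L1 (8), 5 on the TGFBR1 inhibitor (7), 8 on vehicle (12) and 7 with untreated tumours (9). The rat was the replicate: the leukocyte columns of a rat were summed, and levels below are CPM of those sums unless a column is named. The deposited sample table gives each tumour a batch, without saying of what step. All leukocyte columns of untreated tumours were in batch 1 and those of the other 4 groups in batches 2 and 3, so for these columns cohort and batch 1 cannot be told apart, and untreated tumours are given as levels only.

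Dendritic cells take up antigen in a tissue, carry it to lymph nodes and present it to T cells. Type 1 conventional dendritic cells, which present tumour antigen to CD8 T cells, depend on the transcription factors IRF8 and BATF3 and carry the receptors XCR1 and CLEC9A; type 2 cells are less sharply marked and share lectins such as CLEC10A and members of the CLEC4A family with macrophages and monocytes. FLT3 is the receptor for the growth factor that both kinds need, and CCR7 is the chemokine receptor that guides mature dendritic cells, and also naive and central memory T cells, to lymph nodes. IRF8 is also made by B cells. In bulk samples, fewer cells of a type and less RNA per cell cannot be told apart.

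RefSeq promoters (build GRCr8, 250 bases before to 50 after the gene's start) were at hand for Flt3, Clec9a, Xcr1, Irf8, Batf3 and Clec4a3; Clec10a and Ccr7 are named only. The 3 promoters shown first belong to genes whose levels went together across rats, and the fourth to a gene that did not go with them. Capitals mark any match, on either strand, to 4 motifs: GAGGAAGT (the PU.1 motif), GAAA and GAAA with any 2 bases between them (the IRF motif), GGAA and GAAA with any 2 bases between them (the ETS-IRF motif, which can overlap the IRF motif) and TGANTCA (the AP-1 motif that BATF factors also bind). Lower case alone means no match. The Xcr1 promoter lies at chr8:132364607-132364906 (minus strand), that of Clec9a at chr4:164546073-164546372 (plus strand), that of Irf8 at chr19:65699034-65699333 (plus strand) and that of Clec4a3 at chr4:157886508-157886807 (plus strand).
Xcr1: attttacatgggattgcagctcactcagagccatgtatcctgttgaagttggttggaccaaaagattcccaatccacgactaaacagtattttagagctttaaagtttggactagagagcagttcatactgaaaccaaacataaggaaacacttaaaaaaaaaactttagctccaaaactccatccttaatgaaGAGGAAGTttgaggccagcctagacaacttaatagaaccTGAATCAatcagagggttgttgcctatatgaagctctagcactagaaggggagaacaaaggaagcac
Clec9a: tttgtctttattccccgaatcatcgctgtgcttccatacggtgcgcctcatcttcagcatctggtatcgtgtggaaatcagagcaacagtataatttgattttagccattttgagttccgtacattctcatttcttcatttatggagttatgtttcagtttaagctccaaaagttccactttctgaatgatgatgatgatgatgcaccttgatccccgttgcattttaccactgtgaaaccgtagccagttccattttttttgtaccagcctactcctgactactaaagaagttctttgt
Irf8: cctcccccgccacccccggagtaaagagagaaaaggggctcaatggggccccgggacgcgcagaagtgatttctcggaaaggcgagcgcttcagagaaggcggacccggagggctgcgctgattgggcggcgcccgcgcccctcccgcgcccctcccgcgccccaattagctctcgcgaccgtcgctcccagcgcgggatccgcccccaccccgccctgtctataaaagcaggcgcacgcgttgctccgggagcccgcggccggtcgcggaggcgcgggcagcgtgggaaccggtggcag
Clec4a3: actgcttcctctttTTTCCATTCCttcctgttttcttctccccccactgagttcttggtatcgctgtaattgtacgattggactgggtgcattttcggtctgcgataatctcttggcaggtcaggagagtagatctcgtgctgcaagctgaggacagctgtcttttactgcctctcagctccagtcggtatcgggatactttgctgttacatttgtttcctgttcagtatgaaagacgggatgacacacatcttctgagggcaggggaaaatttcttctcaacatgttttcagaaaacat
The Xcr1 promoter held GAGGAAGT at bases 195 to 202 and TGAATCA at bases 234 to 240, both on the gene's strand, counted from the first base printed. The Clec4a3 promoter held the ETS-IRF motif at bases 15 to 24 on the opposite strand. Among all 33469 promoters of this length, GAGGAAGT was present in 2.42%, the IRF motif in 3.92%, the ETS-IRF motif in 2.94% and TGANTCA in 7.33%. The promoters of Flt3, Clec9a, Irf8 and Batf3 held none of the 4. G and C made up 39.7% of the Xcr1 promoter, 40% of that of Clec9a, 72.3% of that of Irf8 and 45.7% of that of Clec4a3, against a median of 51.7% over all promoters.

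Across rats the 8 genes fell into 3 patterns. Flt3, Clec9a, Xcr1 and Irf8 went up and down together; Clec10a, Clec4a3 and Batf3 formed a second group that followed macrophage genes; and Ccr7 ran against the second group. Over 31 rats, Flt3 correlated with Irf8 at Pearson's r = 0.82 (Spearman's rho = 0.80) and with Clec9a at r = 0.78 (rho = 0.77). Xcr1 correlated with Irf8 at r = 0.81 (rho = 0.81) and with Clec9a at r = 0.64 (rho = 0.76). Clec10a and Clec4a3, both C-type lectin receptor genes, correlated at r = 0.93 (rho = 0.91), and Clec10a and Batf3 at r = 0.80 (rho = 0.76). Other than r of Xcr1 with Clec9a (permutation p = 0.00016), each of these coefficients had a permutation p of 1e-05. That is the smallest that 100000 permutations can give. Over the 52 relations computed, the adjusted p was 5.2e-05 for r, and 0.00063 for Xcr1 with Clec9a. The permutations moved all 31 rats freely across treatment groups and batches. Differences between those groups therefore enter r and its p, and relations within treatment groups were not computed. Leaving out the 2 rats farthest from the median of the first gene of each pair left r at 0.81 for Flt3 with Irf8, 0.80 for Flt3 with Clec9a, 0.71 for Xcr1 with Irf8, 0.61 for Xcr1 with Clec9a, 0.91 for Clec10a with Clec4a3 and 0.80 for Clec10a with Batf3.

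Batf3, whose protein type 1 dendritic cells need, had weaker correlations with the other genes of that cell type. Over rats its r was 0.14 with Flt3, 0.08 with Clec9a, 0.30 with Xcr1 and −0.03 with Irf8, with adjusted permutation p-values of 0.54, 0.79, 0.17 and 0.91. Within batches 1, 2 and 3 its r over rats was 0.70, −0.10 and 0.34 with Xcr1, and 0.028, −0.40 and 0.38 with Clec9a. Over the 44 single columns, which include several of one rat, the values were higher, at r = 0.44 (rho = 0.43) with Xcr1 and 0.35 (rho = 0.30) with Clec9a; within batches they were 0.79, 0.38 and 0.34 with Xcr1, and 0.54, 0.26 and 0.27 with Clec9a. These column values are a description. Ccr7 had r = −0.66 with Clec4a3 (rho = −0.68, permutation p = 0.00011, adjusted p = 0.00048; r = −0.62 without the 2 farthest rats) and r = −0.49 with Clec10a (rho = −0.51, permutation p = 0.0046, adjusted p = 0.011; r = −0.48 without the 2 farthest rats).

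Within each batch these 8 relations, from Flt3 with Irf8 to Ccr7 with Clec10a, leaving aside those of Batf3 with type 1 genes, had the sign of the pooled value. Flt3 with Irf8 had r = 0.71, 0.92 and 0.72 in the 7, 7 and 10 rats whose columns were all in batch 1, 2 or 3. Clec10a with Clec4a3 had r = 0.85, 0.95 and 0.96, and Ccr7 with Clec4a3 had r = −0.66, −0.95 and −0.49. Xcr1 with Clec9a was weakest in batch 1, at r = 0.42, against 0.88 and 0.83 in batches 2 and 3. Outside these 8 relations, Flt3 with Xcr1 had r = 0.75 over all rats. Within batch 1 it fell to 0.27, against 0.80 and 0.81 in batches 2 and 3. Ccr7 with Batf3 had r = −0.46 over all rats (permutation p = 0.010, adjusted p = 0.023). Its rho was −0.40 (permutation p = 0.028, adjusted p = 0.056), and within batches its r was −0.23, −0.76 and −0.36.

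**Figure D1:**
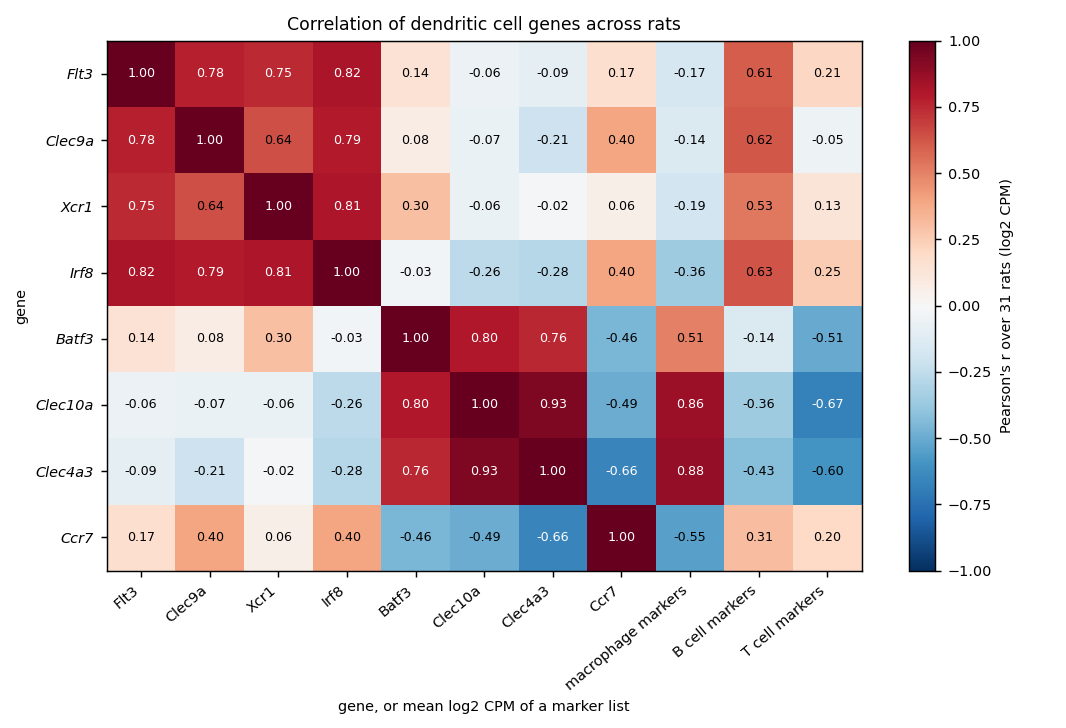
Pearson's r of log2 CPM over 31 rats for each pair of the 8 genes, and for each gene with the mean log2 CPM of macrophage, B cell and T cell marker genes; colour runs from blue (−1) to red (1). Flt3, Clec9a, Xcr1 and Irf8 form one red block (r from 0.64 to 0.82), Batf3, Clec10a and Clec4a3 a second (0.76 to 0.93), and Ccr7 is blue against the second.

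The genes most like each member, ranked by r of log2 CPM over the 44 leukocyte columns, showed the same division; as the highest of many genes they are a description. For Flt3 they were Irf8 (r = 0.81), Tlr12 (0.79) and Tmem50b (0.79). Xcr1 was closest to Tlr12 (0.79), Flt3 (0.78) and Clec9a (0.78), and Clec9a to Dnase1l3 (0.79), Xcr1 (0.78) and Flt3 (0.75). Irf8 was closest to Flt3 (0.81), Cadm1 (0.79), an adhesion molecule of type 1 dendritic cells, and Blk (0.76), a kinase of B cells.

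Clec4a3 was closest to Clec4a1 (0.96), Amdhd2 (0.93) and Ltbr (0.92), and Clec10a to Fxyd2 (0.93), Fcrl2 (0.92) and Gpx1 (0.92). Batf3 was closest to Gpx1 (0.83), Mnda (0.83) and Sdf2l1 (0.83). Ccr7 was closest to Vps37b (0.84), Crem (0.82) and Mmd (0.82), none of them another of the 8 genes.

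Markers of other leukocytes moved with each pattern. The mean log2 CPM of 12 macrophage markers correlated with Clec4a3 at r = 0.88 (rho = 0.87) and with Clec10a at r = 0.86 (rho = 0.87), each with a permutation p of 1e-05. For Batf3 the same correlation was lower, at r = 0.51 (rho = 0.49, permutation p = 0.0037, adjusted p = 0.0090). Within batches 1, 2 and 3 it was 0.26, 0.54 and 0.58. The mean of 6 B cell markers correlated with Irf8 at r = 0.63 (rho = 0.59, permutation p = 0.00019), with Clec9a at 0.62 (rho = 0.52, permutation p = 0.00031), with Flt3 at 0.61 (rho = 0.56, permutation p = 0.00037) and with Xcr1 at 0.53 (rho = 0.49, permutation p = 0.0027). Leaving out the 2 farthest rats gave r = 0.86 for Clec4a3 and 0.82 for Clec10a with the macrophage mean, and 0.64, 0.58, 0.66 and 0.51 for Irf8, Clec9a, Flt3 and Xcr1 with the B cell mean. Within batches the B cell relations of these 4 genes ran from r = 0.39 to 0.94. T cell markers went the other way: their mean correlated with Clec10a at r = −0.67 (rho = −0.71, permutation p = 3e-05, adjusted p = 0.00014) and with Clec4a3 at r = −0.60 (rho = −0.55, permutation p = 0.00017, adjusted p = 0.00063). The part of macrophages, B cells or T cells in the levels of these genes was not tested.

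Whether the treatments changed the genes was asked by comparing each treated group with vehicle. Clec4a3, Clec10a and Batf3 had lower fitted levels in all 3 treated groups, and none of the 24 differences over the 8 genes passed the test. Fitted with edgeR's quasi-likelihood test, 0 of 8 genes had an adjusted p under 0.05 in each comparison. The background was the same: 0% of the 11932 genes tested were called with the combination, 0% with anti-PD-L1 and 0% with the TGFBR1 inhibitor. At an unadjusted p under 0.05 there were 1869, 1407 and 2039 genes, among them the same 3 members each time, Clec10a, Clec4a3 and Batf3. DESeq2 called 335, 153 and 414 genes, with Clec4a3 as the 1 member called with the combination and with the TGFBR1 inhibitor, and 0 members with anti-PD-L1. The 3 comparisons share the vehicle rats.

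Clec4a3, a lectin receptor gene of the family of DCIR, had 14.03, 26.01 and 61.5 CPM as the lowest, median and highest level in combination rats. It had 4.02, 22.1, 35.7, 57.5 and 86.8 CPM in anti-PD-L1 rats and 2.53, 6.96, 20.3, 34.4 and 60.5 CPM in TGFBR1 inhibitor rats, against 7.92, 153.2 and 306.5 CPM as the lowest, median and highest in vehicle rats. Of 8 vehicle rats, 7 were at 60.8 CPM or more and rat P7 was at 7.92, so the ranges overlapped with every treated group. The fitted log2 fold change was −2.40 (SE 0.73) with the combination, −2.02 (SE 0.77) with anti-PD-L1 and −2.78 (SE 0.80) with the TGFBR1 inhibitor; the adjusted p by edgeR was 0.15, 0.34 and 0.14. Without P7, whose tumour was the 1 stable vehicle tumour with a leukocyte column, the TGFBR1 inhibitor comparison passed, at a log2 fold change of −2.998 and an adjusted p of 0.043, within a range of 0.043 to 0.46 over the fits that each leave out a rat.

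Clec10a, the gene of a galactose-binding lectin of macrophages and type 2 dendritic cells, had 24.4, 114.5 and 303.9 CPM as the lowest, median and highest in combination rats. It had 14.3, 125.0, 139.2, 246.0 and 275.9 CPM in anti-PD-L1 rats and 11.8, 24.7, 99.4, 205.0 and 250.1 CPM in TGFBR1 inhibitor rats, against 32.7, 449.6 and 976.3 CPM in vehicle rats. The vehicle rats at the bottom were again P7, at 32.7 CPM, and P39, at 186.1 CPM, and the other 6 lay above every treated rat. Its log2 fold changes were −1.79 (SE 0.78), −1.80 (SE 0.84) and −2.27 (SE 0.86) for the combination, anti-PD-L1 and the TGFBR1 inhibitor, with adjusted p by edgeR of 0.27, 0.41 and 0.19.

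Batf3 moved with these 2 lectin genes. It had 7.37, 17.4 and 48.3 CPM in combination rats, 9.61, 15.3, 22.4, 25.3 and 25.6 CPM in anti-PD-L1 rats, and 5.13, 5.37, 18.04, 24.8 and 34.7 CPM in TGFBR1 inhibitor rats, against 11.8, 35.3 and 76.3 CPM in vehicle rats. Every range overlapped that of vehicle. The log2 fold changes of −1.09 (SE 0.44), −1.17 (SE 0.47) and −1.35 (SE 0.47) had adjusted p by edgeR of 0.23, 0.36 and 0.17.

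Some other settings called these 3 genes with the combination. Clec4a3 passed by DESeq2 on the same sums per rat (adjusted p = 0.010). DESeq2 called many other genes in that comparison too, as counted above. With each column entered by itself in limma voom and rat as a random effect, Clec10a (adjusted p = 0.047) and Clec4a3 (0.035) passed and Batf3 did not (0.054). Batf3 passed when batch was added to that fit (adjusted p = 0.050, just under the threshold at 0.04964) and with edgeR in growing tumours alone (0.027), both settings chosen after seeing the data. The number called over all genes in the voom and growing-tumour fits is not given here. Calls in those fits are therefore not set against a background, and they do not single out these 3 genes. Over all settings tried, the adjusted p with the combination ran from 0.010 to 0.62 for Clec4a3. It ran from 0.047 to 0.62 for Clec10a and from 0.027 to 0.67 for Batf3. Within batches the values kept their sign: with the combination, Clec4a3 stood at −2.585 in batch 2 and −2.43 in batch 3, Clec10a at −3.01 and −1.44, and Batf3 at −1.996 and −0.60.

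Macrophage markers differed in the same direction. The summed level of the 12 markers ran from 242.5 to 2930 CPM in combination rats, from 58.2 to 1387 in anti-PD-L1 rats and from 239.7 to 1287 in TGFBR1 inhibitor rats, against 360.8 to 9727 CPM in vehicle rats, with medians of 570.0, 679.5 and 504.2 CPM against 2077 CPM. None of the 12 markers was at 0 throughout a group. All 12 had fitted log2 fold changes below 0 in each comparison, with 0 of 12 called and medians of −2.21, −2.16 and −2.31, beside medians over all genes of 0.0059, −0.020 and 0.0041. Ptprc itself lay at 1137 to 1647, 1133 to 1539 and 995.8 to 1602 CPM in the 3 treated groups, against 679.8 to 1021 CPM in vehicle rats; since Ptprc chose the columns, these levels are a description. The part of macrophage content in the levels of Clec4a3, Clec10a and Batf3 was not tested.

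**Figure D2:**
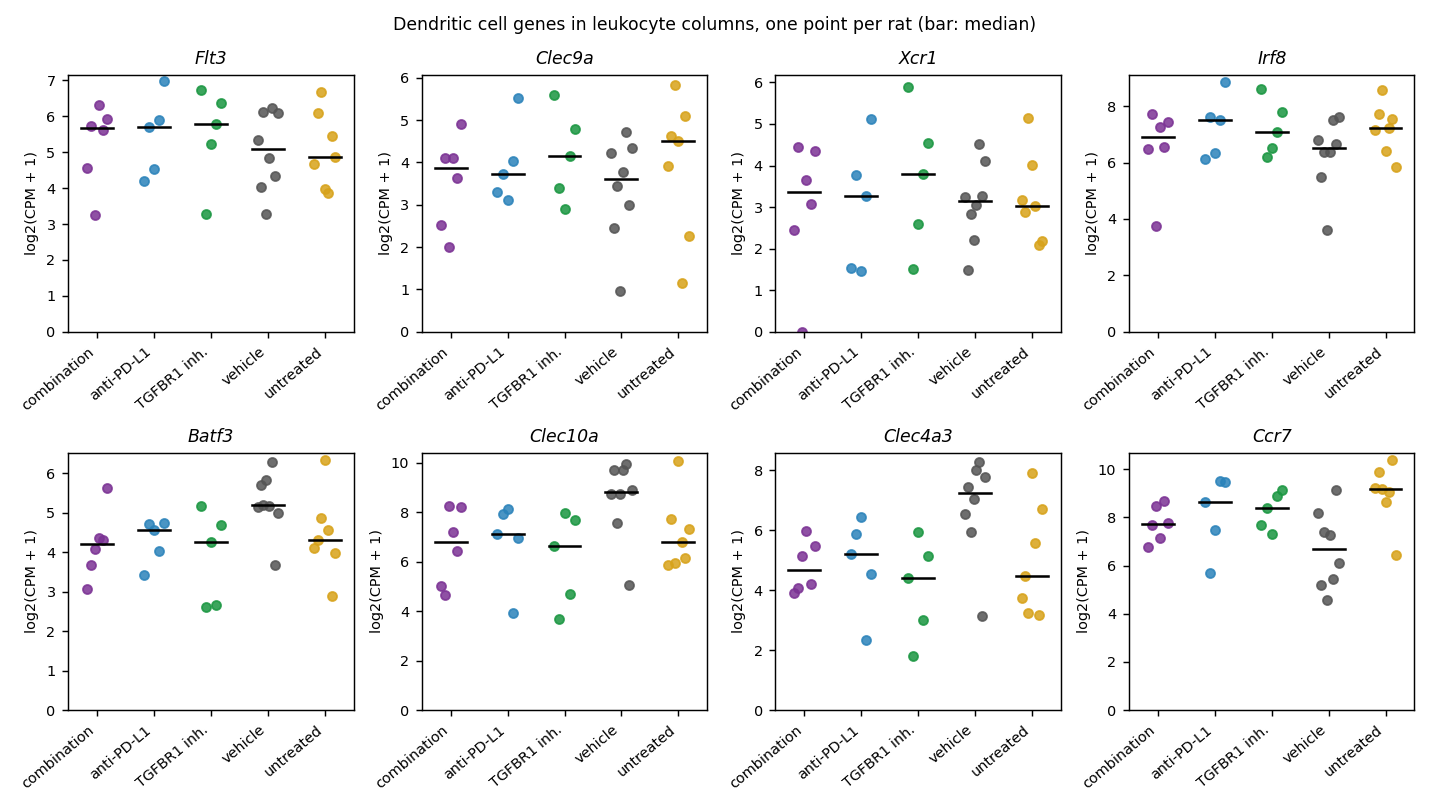
Level of each gene, as log2(CPM + 1) of the summed leukocyte columns of a rat, in combination (6 rats), anti-PD-L1 (5), TGFBR1 inhibitor (5), vehicle (8) and untreated (7) tumours; points are rats and bars are medians. Clec10a, Clec4a3 and Batf3 have their highest medians in vehicle rats, Ccr7 has its lowest there, and the groups overlap for all 8 genes.

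The genes of type 1 dendritic cells showed no such division. Flt3 had 8.58, 49.7 and 78.3 CPM as the lowest, median and highest in combination rats. It had 17.4, 22.1, 50.96, 58.5 and 124.7 CPM in anti-PD-L1 rats and 8.64, 36.8, 54.5, 82 and 105.03 CPM in TGFBR1 inhibitor rats, against 8.71, 33.5 and 73.6 CPM in vehicle rats. Its log2 fold changes of 0.020 (SE 0.53), 0.34 (SE 0.56) and 0.41 (SE 0.56) had 95% intervals of −1.02 to 1.06, −0.75 to 1.44 and −0.68 to 1.501, in that order; each interval holds 0.

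Clec9a, the gene of a receptor for dead cells, had 3.02, 13.9 and 29.2 CPM in combination rats, 7.66, 8.81, 12.3, 15.3 and 44.9 CPM in anti-PD-L1 rats, and 6.48, 9.45, 16.7, 26.5 and 47.5 CPM in TGFBR1 inhibitor rats, against 0.94, 11.3 and 25.5 CPM in vehicle rats. Xcr1, the gene of the receptor for the chemokine XCL1, had 0, 9.55 and 20.8 CPM in combination rats, 1.75, 1.88, 8.70, 12.7 and 34.03 CPM in anti-PD-L1 rats, and 1.87, 5.03, 12.9, 22.45 and 58.5 CPM in TGFBR1 inhibitor rats, against 1.80, 7.85 and 22.03 CPM in vehicle rats. The 0 was in combination rat P33, where a count of 0 allows up to 0.245 CPM by counting error alone. The log2 fold changes of Clec9a were −0.0041 (SE 0.57), 0.42 (SE 0.60) and 0.67 (SE 0.59), and those of Xcr1 −0.0060 (SE 0.80), 0.19 (SE 0.83) and 0.95 (SE 0.82), for the combination, anti-PD-L1 and the TGFBR1 inhibitor. All 6 adjusted p by edgeR were 0.59 or more.

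Irf8 ran at 12.3, 122.3 and 211.9 CPM in combination rats, at 68.3, 79.8, 180.9, 193.7 and 461.8 CPM in anti-PD-L1 rats, and at 72.3, 90.9, 133.6, 221.9 and 384.2 CPM in TGFBR1 inhibitor rats, against 11.2, 91 and 196.3 CPM in vehicle rats. The log2 fold changes were 0.098 (SE 0.54), 0.83 (SE 0.56) and 0.71 (SE 0.57), with adjusted p by edgeR of 0.95, 0.55 and 0.55. Anti-PD-L1 rat P29 was the highest rat of its group for Flt3, Clec9a, Xcr1 and Irf8, and without it the log2 fold changes with anti-PD-L1 were −0.16 for Flt3, −0.21 for Clec9a, −0.68 for Xcr1 and 0.29 for Irf8. The B cell markers, summed, ran from 53.9 to 806.7 CPM in combination rats, from 67.4 to 1246 in anti-PD-L1 rats and from 81.2 to 208.6 in TGFBR1 inhibitor rats, against 39.95 to 104.1 CPM in vehicle rats. Their medians lay closer together, at 115.7, 95.6 and 131.4 CPM in that order, against 73.85 CPM. The part of B cells in the levels of Irf8 was not tested.

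Ccr7 had higher fitted levels in each treated group, and none passed. It had 107.04, 212.8 and 410.8 CPM in combination rats, 50.4, 174.7, 391.6, 713.7 and 733.2 CPM in anti-PD-L1 rats, and 156.8, 205.6, 331.6, 472.5 and 562.9 CPM in TGFBR1 inhibitor rats, against 23.1, 110.9 and 568.9 CPM in vehicle rats. The highest vehicle rat was P7, the one lowest in Clec4a3 and Clec10a. Log2 fold changes were 0.45 (SE 0.65), 1.17 (SE 0.67) and 0.92 (SE 0.68), with adjusted p by edgeR of 0.78, 0.49 and 0.51. The summed T cell markers had medians of 4962, 4223 and 4962 CPM in the 3 treated groups, against 3731 CPM in vehicle rats. Over 31 rats Ccr7 correlated with the T cell mean at r = 0.20 (permutation p = 0.28, adjusted p = 0.40). With the macrophage mean it had r = −0.55 (permutation p = 0.0014, adjusted p = 0.0040). T cells also make Ccr7, and the part of either cell type in its levels was not tested.

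**Figure D3:**
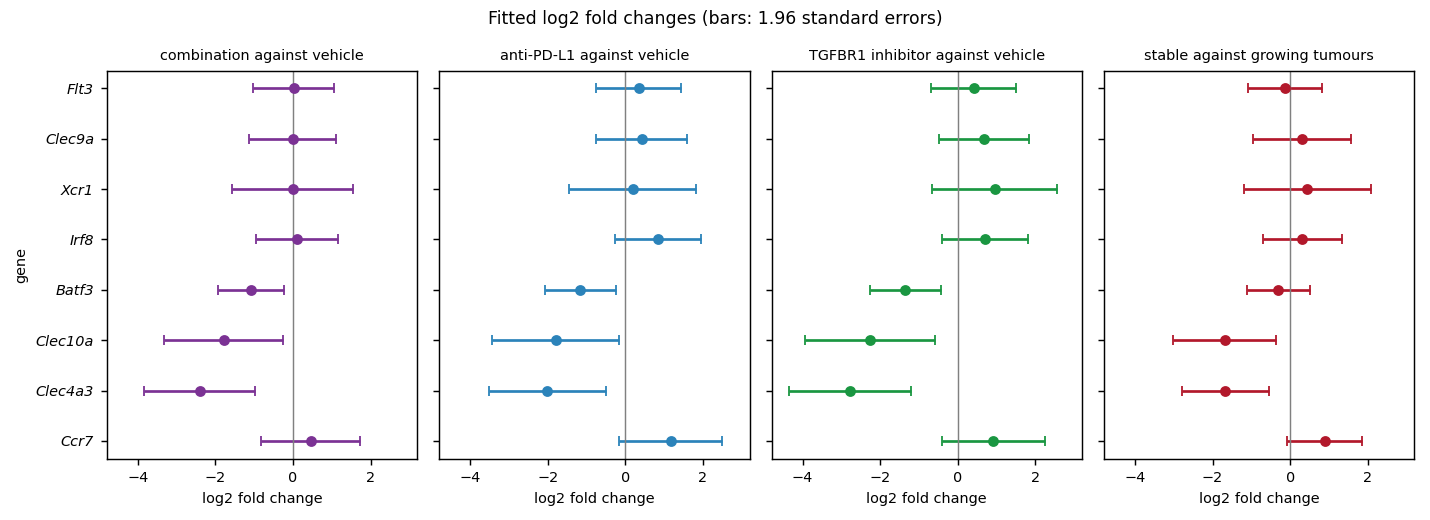
Fitted log2 fold change of each gene (points) with its 95% interval (bars) for the combination, anti-PD-L1 and the TGFBR1 inhibitor, each against vehicle, and for stable against growing tumours. The intervals of Clec10a and Clec4a3 lie below 0 in all 4 panels and those of Batf3 in the first 3; none of the differences passed after adjustment over all genes.

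The combination was also set against each single agent, which asks whether the second drug added a change. By edgeR, 0 of 8 genes passed against anti-PD-L1 and 0 of 8 against the TGFBR1 inhibitor, where 0% of 11932 genes were called in each. At an unadjusted p under 0.05 there were 112 and 163 genes with 0 members among them, and DESeq2 called 0 genes in both. Taken over the 8 genes, the fitted log2 fold changes had a median of −0.35 against anti-PD-L1 and −0.43 against the TGFBR1 inhibitor, beside 0.021 and 0.0072 over all genes. The departure of the combination from the sum of the single agents on the log2 scale, a contrast chosen after the values were seen, was 2.39 (SE 1.07) for Clec4a3, 2.28 (SE 1.17) for Clec10a and 1.43 (SE 0.66) for Batf3, with adjusted p by edgeR of 0.69, 0.70 and 0.69.

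For untreated tumours, whose leukocyte columns were all in batch 1, levels alone are given. Clec10a had a median of 110.3 CPM (56.9 to 1082) and Clec4a3 of 21.03 CPM (8.13 to 239.8), medians inside the ranges of the other groups; the highest of both was rat C2, whose Ptprc was the lowest of its group at 497.8 CPM. Ccr7 had a median of 579.7 CPM (85.1 to 1338), above the medians of the 4 groups of the treated cohort. Flt3 had a median of 28.4 CPM (13.6 to 101.2), Clec9a of 21.7 (1.22 to 55.95), Xcr1 of 7.14 (3.28 to 34.5), Irf8 of 150.1 (56.9 to 380.3) and Batf3 of 18.8 (6.34 to 79.2). For each of the 8 genes, ordered by median over the 5 groups, the ranges of neighbouring groups overlapped.

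Other genes of dendritic cells were taken from lists set by known function. Of 9 further type 2 genes, 0 passed with the combination by edgeR and all 9 had values below 0, with a median log2 fold change of −2.08. The median was −1.26 with anti-PD-L1, where 6 of 9 were below 0, and −1.996 with the TGFBR1 inhibitor, where all 9 were. Clec12a, an inhibitory lectin receptor gene of myeloid cells, had the smallest p of the list with the combination, at −2.30 (SE 0.54, adjusted p = 0.13), and with the TGFBR1 inhibitor, at −2.33 (SE 0.58, adjusted p = 0.14). Clec4a2 came next with the combination, at −2.36 (SE 0.75, adjusted p = 0.16). The macrophage markers lay below 0 in the same comparisons, as given above, and the part of those cells was not tested.

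Of 6 further type 1 genes, 0 passed and 5 were below 0 with the combination, with a median of −0.44; Naaa, a lysosomal amidase gene, was at −0.96 (SE 0.55, adjusted p by edgeR 0.40) and Tlr3, a sensor of double-stranded RNA, at −1.02 (SE 0.62, adjusted p 0.42). Of 12 genes of mature dendritic cells, 0 passed and 9 were above 0, with a median of 0.52. Lamp3 was at 2.20 (SE 1.07, adjusted p by edgeR 0.32) and Socs2 at 0.67 (SE 0.35, adjusted p 0.35). Levels of Lamp3 were very low, at 0, 0.57 and 2.89 CPM as the lowest, median and highest in combination rats. Of 8 plasmacytoid genes, 0 passed and 5 were above 0, with a median of 0.51; Spib, a factor that B cells also make, was at 1.925 (SE 0.68, adjusted p by edgeR 0.19).

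Among 9 growth factor and lineage genes, 0 passed and 6 were below 0, with a median of −0.072; Spi1, the gene of PU.1, was at −1.06 (SE 0.48, adjusted p by edgeR 0.29) and Csf2ra, a GM-CSF receptor chain gene, at −0.95 (SE 0.51, adjusted p 0.36). All 8 MHC class II genes were below 0 with 0 called and a median of −0.78, and those with the smallest p were Cd74, the invariant chain, at −0.80 (SE 0.48, adjusted p by edgeR 0.42) and RT1-Da, a class II chain gene, at −0.80 (SE 0.48, adjusted p 0.42). Of 5 chemokines that draw dendritic cells, 0 passed and 3 were below 0; Xcl1, the gene of the ligand of XCR1, was at −0.42 (SE 0.49, adjusted p by edgeR 0.72).

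The tumours of the treated cohort were also classed by the study as growing or stable, so the genes were compared between 7 sums of stable tumours and 19 sums of growing tumours, 1 per rat and class, with treatment in the fit. The fit took the sums as independent, although 2 rats gave a sum to each class. By edgeR 0 of 8 genes passed, where 0% of 11569 genes were called and 1727, with Clec10a and Clec4a3 among them, had an unadjusted p under 0.05; DESeq2 called 305 genes and 1 member, Clec4a3. Stable tumours came from 2 combination, 2 anti-PD-L1, 2 TGFBR1 inhibitor rats and 1 vehicle rat, and growing tumours from 5, 4, 3 and 7 rats.

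Clec10a had 11.8, 24.7 and 295.9 CPM as the lowest, median and highest of the stable sums, against 30.7, 250.1 and 976.3 CPM of the growing sums. The stable value of 295.9 belonged to combination rat P36, and the next highest stable value was 76.2. The log2 fold change was −1.69 (SE 0.68, adjusted p by edgeR 0.24). Without P36 it was −2.92 and passed (adjusted p = 0.020), within a range of 0.020 to 0.80 over the fits that leave out a rat.

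Clec4a3 had 2.53, 7.92 and 43.4 CPM in stable sums, against 12.95, 60.8 and 306.5 CPM in growing sums. P36 was again the highest stable sum. Its log2 fold change was −1.67 (SE 0.57, adjusted p by edgeR 0.17), and −2.27 without P36 (adjusted p = 0.030). Within batch 3 alone the values were −0.56 for Clec4a3 and −0.57 for Clec10a. The only stable sums there were those of P17 and P36, and all other stable sums were in batch 2. Without the vehicle group the values were −1.35 for Clec4a3 and −1.375 for Clec10a, a setting chosen after seeing the data. The 12 macrophage markers summed to 58.2 to 713.3 CPM in stable sums and 210.4 to 9727 CPM in growing sums, and their part in these values was not tested.

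Ccr7 had 193.6, 367.8 and 733.2 CPM in stable sums, against 23.1, 168.2 and 713.7 CPM in growing sums, with a log2 fold change of 0.89 (SE 0.49, adjusted p by edgeR 0.41). In batch 3 alone, where only P17 and P36 gave stable sums, the sign was the opposite, at −0.50. Flt3 had 8.64, 54.5 and 71.4 CPM in stable sums against 8.58, 36.8 and 124.7 CPM in growing sums, and Batf3 5.13, 15.3 and 48.3 CPM against 4.58, 24.8 and 76.3 CPM. Their log2 fold changes were −0.14 (SE 0.49) and −0.31 (SE 0.41), with adjusted p by edgeR of 0.93 and 0.77.

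Xcr1 had 1.87, 8.70 and 31.98 CPM in stable sums against 0, 6.13 and 58.5 CPM in growing sums, Clec9a 6.93, 15.3 and 29.2 CPM against 0.16, 9.86 and 47.5 CPM, and Irf8 72.3, 133.6 and 310.6 CPM against 11.2, 87.97 and 461.8 CPM. The lowest values of these 3 genes were all in growing tumours, and the highest were too. Their log2 fold changes were 0.44 (SE 0.84), 0.31 (SE 0.64) and 0.32 (SE 0.52), with adjusted p by edgeR of 0.85, 0.87 and 0.82.

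Only 2 rats, P24 on anti-PD-L1 and P31 on the combination, had leukocyte columns of both classes. Their values are given as a description, and the difference within rats was not tested on this pair alone. In P31 the stable tumours had 31.98 CPM of Xcr1 and the growing tumour 0.64, and for Clec9a the values were 25.3 in stable and 0.16 in growing tumours. In P24 they were 6.13 in the stable and 0.36 CPM in the growing tumour for Xcr1, and 10.9 in the stable and 8.07 in the growing tumour for Clec9a. The growing tumour of P31 had only 8 counts of Xcr1 and 2 of Clec9a, and that of P24 had 8 counts of Xcr1. In P24 the stable tumour was in batch 2 and the growing tumour in batch 3, so class and batch cannot be told apart there. Irf8 stood at 310.6 CPM in the stable and 33.45 in the growing tumours of P31, and at 99.5 and 57.2 CPM in the stable and the growing tumour of P24. One of the stable tumours of P31 was high in Irf8 and low in Xcr1, at 445.3 and 3.203 CPM; the other had 238.9 and 47.3 CPM.

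**Figure D4:**
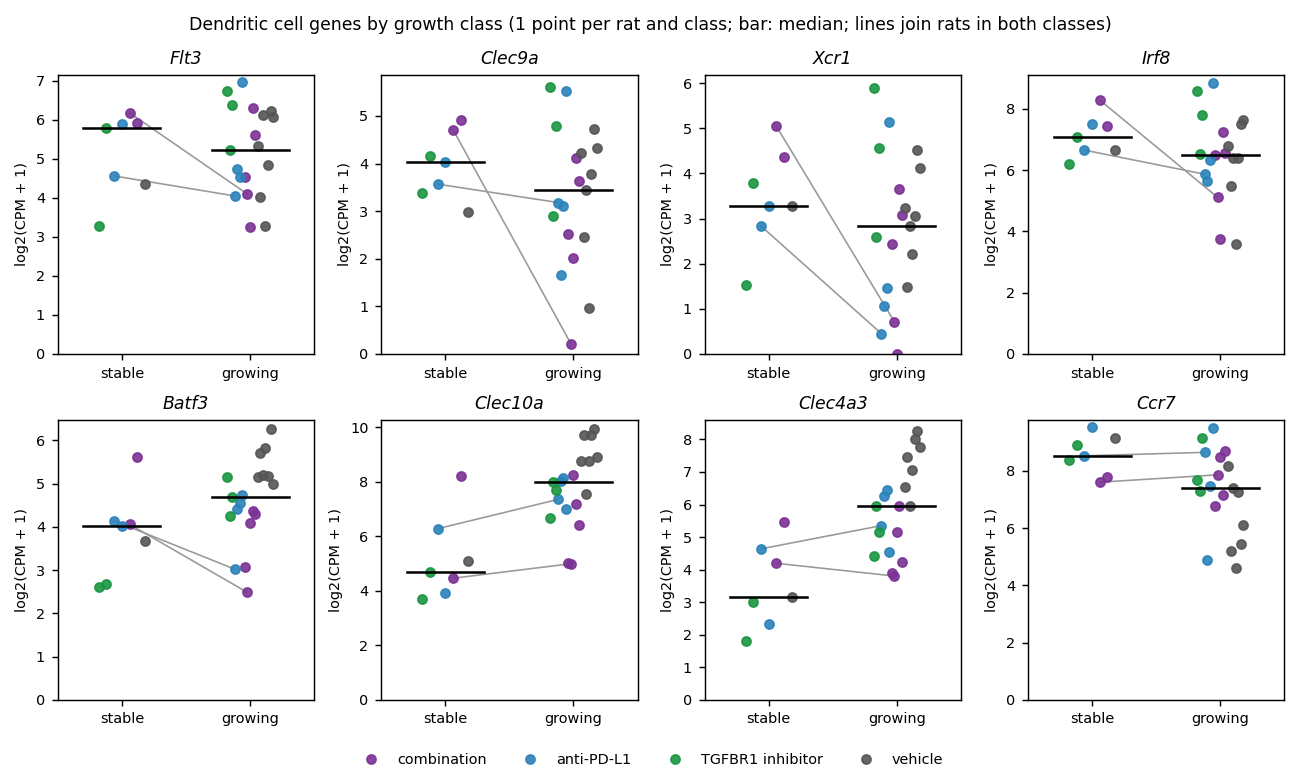
Level of each gene, as log2(CPM + 1), in 7 sums of stable and 19 sums of growing tumours; each point is 1 rat and class, coloured by treatment, bars are medians, and grey lines join the 2 rats with both classes. Clec10a and Clec4a3 have lower medians in stable tumours, the one high stable point of both is combination rat P36, and the classes overlap for all 8 genes.

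Lists of other dendritic genes gave no call between the classes either. Of 9 further type 2 genes 8 were below 0 in stable tumours (median −0.94), with the smallest p for Sirpa at −1.135 (SE 0.50, adjusted p by edgeR 0.29), a receptor gene of myeloid cells. All 5 chemokines that draw dendritic cells were above 0 (median 1.03), with the smallest p for Ccl5 at 1.87 (SE 0.57, adjusted p by edgeR 0.14) and Ccl4 at 1.03 (SE 0.45, adjusted p 0.29). Of 12 mature dendritic genes 7 were below 0 (median −0.44); Socs2 was at −0.80 (SE 0.27, adjusted p by edgeR 0.16) and Ccl17, a chemokine of mature dendritic cells, at −2.08 (SE 0.87, adjusted p 0.27). The median over all genes was −0.011.

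The spread among tumours of one rat was at least as large as that over all columns in some genes and smaller in others. Over the 10 rats with 2 or more leukocyte columns, the SD of log2 CPM within a rat was 0.83 for Clec10a and 0.90 for Ccr7, beside 1.81 and 1.55 over all 44 columns. For Xcr1 the SD within a rat was 2.46 and for Clec9a 2.40, beside 2.04 and 1.87 over all columns. The SD over all columns holds the spread within rats too, and is not one between rats. Some rats, such as P19, had tumours in both batch 2 and batch 3. Some Xcr1 and Clec9a values rested on few counts, such as 0 of each in a column of untreated rat C10. In vehicle rat P5, for example, the 3 tumours had 3.73, 15.5 and 0.38 CPM of Xcr1, and 355.7, 648.4 and 1514 CPM of Clec10a. The column with 1514 CPM had the lowest Ptprc of all leukocyte columns, 486.2 CPM.

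Outside the leukocyte columns, 7 of the 8 genes were nearly lost. Median levels in the 44 leukocyte columns and the 62 columns under 150 CPM of Ptprc were 39.9 and 0.51 CPM for Flt3, 11.2 and 0.094 for Clec9a, 7.31 and 0.22 for Xcr1, and 106.4 and 6.84 for Irf8. For Clec10a they were 159.9 and 2.22 CPM, for Clec4a3 40.1 and 0.88, and for Ccr7 239.7 and 2.805. The ratio of the medians ran from 15.6 for Irf8 to 118.6 for Clec9a. Columns with no count numbered 26 of 62 for Clec9a, 19 for Xcr1, 18 for Flt3, 10 for Clec4a3 and 7 each for Clec10a and Ccr7.

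Batf3 was the exception: its medians were 20.8 CPM in leukocyte columns and 18.2 CPM in the others, a ratio of 1.15. Like Irf8, whose lowest value there was 0.11 CPM, Batf3 was at 0 in none of the 62 columns. The 4 highest Batf3 values there, 103.5 to 128.7 CPM, were in columns with 2.62 to 6.67 CPM of Ptprc. These columns had 1864 to 2648 CPM of Epcam, the epithelial adhesion gene. Those 4 Batf3 values were above the 99.6 CPM of the highest leukocyte column. As a description over the 62 columns, Batf3 correlated with Ptprc at r = 0.08 and with Epcam at r = 0.38. Irf8 correlated with Ptprc at 0.74, Ccr7 at 0.68, Clec4a3 at 0.67 and Clec10a at 0.59. Lower values were those of Clec9a at 0.51, Xcr1 at 0.45 and Flt3 at 0.44. The column with most Clec9a, Irf8 and Ccr7 among these (20.1, 78.6 and 507.9 CPM, from anti-PD-L1 rat P28) was also the one with most Ptprc, 124.0 CPM. That with most Clec10a, Clec4a3 and Xcr1 (123.6, 47.95 and 5.74 CPM, from untreated rat C9) had 84.6 CPM of Ptprc. Flt3 was highest, at 32.3 CPM, in a column of untreated rat C10 with 18.3 CPM of Ptprc. A column of untreated rat C11 had 46.4 CPM of Clec10a with only 0.072 CPM of Ptprc.

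**Figure D5:**
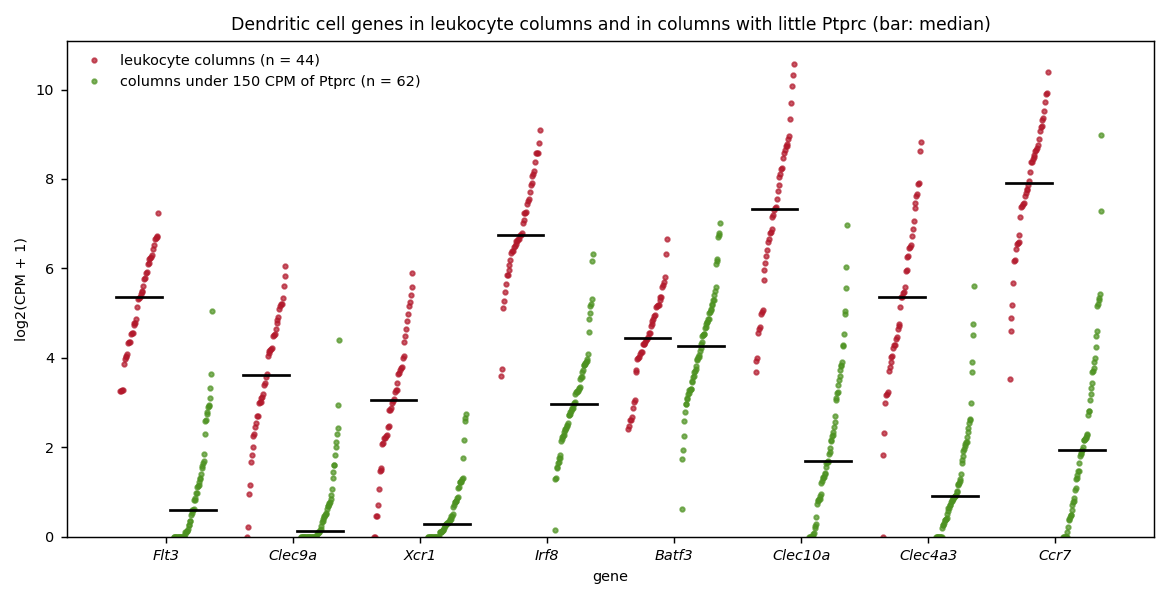
Level of each gene, as log2(CPM + 1), in 44 leukocyte columns (red) and 62 columns under 150 CPM of Ptprc (green); points are columns in rising order and bars are medians. Batf3 has nearly the same median in both classes, and the other 7 genes are much lower in the columns with little Ptprc.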

How the data were processed

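Libraries were made with a low-input SMARTer kit from under 10 ng of total RNA of sorted cells, per the labels' protocols. Reads were handled with STAR and FastQC on build rn6, per the submitters' processing notes; no source used here names the counting tool or the annotation. The authors deposited whole-number counts per gene symbol, not normalized; 1 of 108 columns had no name and was not used. Batch and growth class came from the deposited sample table, by rat and tumour. No column was named for a mammary gland, so untreated tumours were not compared with gland.

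Counts were summed per rat over leukocyte columns (Ptprc at or over 300 CPM) and, for growth, per rat and class. Genes were filtered with filterByExpr, scaled with TMM and tested with edgeR 4.0.16 in R 4.3.3 (glmQLFit and glmQLFTest, robust); the 4 treated groups shared one estimate of spread. P-values were adjusted by Benjamini-Hochberg over all genes tested, with calls under 0.05. Intervals are 95%, from the SE by the normal approximation. Correlations used log2 CPM with a prior count of 2 and 2-sided permutation tests that moved rats freely across groups and batches. A count of 0 allows up to 3 counts, by counting error only. Alternatives used DESeq2 1.42.0 and limma 3.58.1. Only the edgeR steps for the combination against vehicle were run on simulated counts, with the same spread for every gene. The growth fit, the alternatives and the permutation tests were not simulated. The 8 genes, the gene lists and the rules were chosen with earlier results of these data known. From other lists, the text names genes with the smallest p (up to 4 past the test, otherwise 2, of which some are left out), and for each member the 3 most correlated genes with a mean of at least 5 CPM. Of 17455 symbols, 17107 were found in the RefSeq table.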

Additional observations from a re-analysis of the deposited data

Results flagged for a closer look

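Of 40 groups of rats (8 genes in 5 groups), 4 had a rat that stood apart by Dixon's criterion at 95%. Chance marks about 1 in 20 groups. The ratios were taken on log2 CPM, with the prior count used for the correlations, while the levels printed here are CPM. For Xcr1 in rat P33, where no read was counted, the ratio depends on that prior count. Clec10a was at 14.26 CPM in anti-PD-L1 rat P28, the lowest of 5 rats (ratio 0.732 against a critical value of 0.71). Combination rat P33 was the lowest of 6 for Xcr1, at 0.0 CPM (ratio 0.712 against 0.625), and for Irf8, at 12.34 CPM (ratio 0.690). Clec4a3 was at 7.916 CPM in vehicle rat P7, the lowest of 8 (ratio 0.557 against 0.526).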

How the results depend on the processing

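No paired analysis was possible because the replicate numbers only count samples within a group and each rat received 1 treatment. For growth, rat entered as a random effect in the voom fits, in which Clec10a had a log2 fold change of −2.49 (adjusted p = 0.054) and Clec4a3 of −2.28 (adjusted p = 0.092). By edgeR, 0 of the 8 genes were called in every comparison. The count was 1 by DESeq2 with the TGFBR1 inhibitor, with the combination and in stable tumours. With the combination it was 2 with each column in limma voom and rat as a random effect, 3 when batch was added, and 2 in growing tumours alone. Leaving out 1 rat at a time gave 0 to 1 with the TGFBR1 inhibitor and 0 to 2 in stable tumours. The number called over all genes in the voom, growing-tumour and leave-one-out fits is not given here. Those counts of members are therefore not set against a background. Settings with batch added to voom, growing tumours alone, batch 2 alone and without vehicle were chosen after seeing the data.

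The log2 fold changes whose sign changed had not passed the test. With anti-PD-L1, Xcr1 was −0.86 with batch as a covariate, −0.46 in voom, −0.57 in voom with batch and −0.18 in growing tumours; Clec9a was −0.19 in batch 3. With the combination, Flt3 was −0.01416 with RLE factors, −0.0008003 with a filter at 5 CPM, −0.01263 by DESeq2, −0.32 in batch 3, −0.03513 in voom, −0.06297 in voom with batch and −0.42 in growing tumours. Xcr1 was 0.47 with batch as a covariate, 0.26 in batch 2 and 0.20 in columns tied by name to a CD45 sample, and Clec9a 0.44 with batch as a covariate and 0.37 in batch 2. Irf8 was −0.43 in batch 3, −0.000186 in voom, −0.001825 in voom with batch, −0.15 in the tied columns and −0.53 in growing tumours, and Ccr7 was −0.16 in batch 2. In stable tumours, Flt3 was 0.12 with batch as a covariate and 0.0303 without vehicle. Batf3 was 0.46 and Ccr7 −0.50 in batch 3, where only P17 and P36 gave stable sums. The cause was not tested.

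Leaving out 1 rat at a time, the log2 fold changes whose sign changed ran as follows. With anti-PD-L1, Flt3 ran from −0.16 to 0.56, Xcr1 from −0.68 to 0.48 and Clec9a from −0.21 to 0.65. With the combination, Flt3 ran from −0.18 to 0.21, Xcr1 from −0.29 to 0.30, Clec9a from −0.40 to 0.24 and Irf8 from −0.09239 to 0.30. In stable tumours, Flt3 ran from −0.36 to 0.16, Xcr1 from −0.03838 to 1.35 and Irf8 from −0.03756 to 0.67. Of the other log2 fold changes, 1110 kept sign and call and 13 passed the test. Tied columns for anti-PD-L1 and growth, and batch 2 for growth, could not be fitted.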
